A study of Mus musculus with 10 samples.

Results

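Hepatic amino acid catabolism was followed in mouse liver and liver tumors through 37 genes for the enzymes that degrade amino acids, picked out of the expression table by gene symbol. All 37 were found among the 16697 genes named there. They comprised 4 genes for phenylalanine and tyrosine, 6 for tryptophan, 4 for histidine, 8 for glycine and serine, 9 for methionine and the other sulfur amino acids, 3 for lysine and proline, and 3 for alanine and aspartate. RNA sequencing had been carried out on bulk tissue in 10 libraries, namely normal liver (NL, n = 4), liver tumors induced with c-MYC and an empty pT3 vector (c-MYC, n = 3), and liver tumors induced with c-MYC and FOXO1AAA, a constitutively active FOXO1 (c-MYC/FOXO1AAA, n = 3). Both transgenes were carried on pT3-EF1α plasmids, brought into hepatocytes by hydrodynamic tail vein injection and inserted by the sleeping beauty transposase. The EF1α promoter is active in most cell types, and which cells carried the transgenes was not measured here. The genotype label was WT for all 10 libraries and no drug was named for any of them. The strain label was C57BL/6 throughout, whereas the extraction text named FVB and the methods of the study FVB/N mice. For mice of this design the plasmid list of the study also gave FVB/N, and it held c-MYC, pT3 or FOXO1AAA, and the transposase, without the MCL1 that a legend named for the controls. The strain label and that legend thus stood against the other sources, and age, sex and time of collection were not given per library.

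The liver is the main site at which most amino acids are broken down, and many of the enzymes are made almost only by hepatocytes. Each chain begins with a committing step, such as a transamination or an oxygenase, and feeds carbon into the tricarboxylic acid cycle, gluconeogenesis or the folate-linked pool of 1-carbon units. Several of the first enzymes, among them those for tyrosine and tryptophan, are classical targets of glucocorticoids and glucagon, and the FOXO factors are known in liver as activators of fasting genes that insulin and AKT switch off. In this setting the comparison of c-MYC with NL addressed the tumors, and that of c-MYC/FOXO1AAA with c-MYC addressed what active FOXO1 changed in them.

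Levels are given as FPKM, fragments per kilobase of gene length, taken back from the deposited log2 values. The values show that each library was scaled by its reads times a factor. This factor was 0.6486 to 0.6838 in NL, 1.2561 to 1.2946 in c-MYC and 1.4537 to 1.5021 in c-MYC/FOXO1AAA. A smaller factor raises FPKM, so levels and fold changes below include it, whereas shares of reads do not. Reads per library ranged from 13.12 to 20.55 M (M, mega). Foxo1 lay between 70.1 and 95.6 FPKM in the 3 c-MYC/FOXO1AAA libraries and between 5.17 and 7.87 FPKM in the other 7. The mouse Myc row held 16 to 55 reads in the tumors and 80 to 369 in NL. It was not known whether this row counts the delivered c-MYC, and it therefore checked nothing about that label. The 8 hepatocyte markers summed to between 81400 and 92000 FPKM in NL, between 3650 and 5610 in c-MYC and between 904 and 1620 in c-MYC/FOXO1AAA, and none of them was without reads in any group. In bulk tissue, fewer hepatocytes and less RNA per hepatocyte cannot be told apart, and this holds for every enzyme below. Library 3 of c-MYC/FOXO1AAA stood apart from the other two: it was the highest of its group for 28 of the 37 enzymes, and the median enzyme stood at 3.94% of the NL mean in it, against 1.56% and 2.26%.

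In c-MYC tumors, 31 of the 37 enzymes fell against NL, 2 rose (Csad and Mat2a) and 4 did not pass the test (Gldc, Amt, Gcsh and Prodh2). A call meant a change tested above 1.5-fold at an adjusted p under 0.05 with limma. Over all 14017 genes tested, 23.6% were called lower and 24.5% higher in this comparison. The median log2 fold change was −3.30 over the enzymes and 0.08 over all genes tested. The enzymes took 1.87 to 2.03% of all reads in NL, 0.59 to 0.644% in c-MYC and 0.145 to 0.23% in c-MYC/FOXO1AAA. All 37 passed the filter on low values, which asked 3 or more libraries to reach an FPKM of 1. The NL libraries alone could carry a gene past it, and Acmsd reached an FPKM of 1 in NL only. Aass reached it in the tumors only in c-MYC 3 (1.02) and c-MYC/FOXO1AAA 3 (1.02), too few without NL. Both enzymes thus passed through the group where they were high, and both are counted among those called lower against NL.

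When c-MYC/FOXO1AAA was compared with c-MYC, 24 enzymes were lower still, 3 were higher (Tat, Tdo2 and Kmo) and 10 did not pass the test. Among all genes tested, 12.7% were called lower and 15.9% higher. The median log2 fold change was −1.77 over the enzymes and 0.03 over all genes. Against NL, 36 enzymes were lower in c-MYC/FOXO1AAA and Mat2a alone was higher, where 26.6% of all genes were called lower and 31.2% higher. The median here was −5.47 over the enzymes and 0.21 over all genes. These comparisons share libraries with each other, so their values are set side by side below and none is support for another. Joint patterns over the 3 comparisons were counted for the enzymes only, so no share over all genes stands beside them. Across both steps, 19 enzymes were called lower in each of the 3 comparisons and 9 fell in c-MYC without a further call. A smaller set of 4 did not pass the test in c-MYC and was then lower in c-MYC/FOXO1AAA, and Csad rose and then fell. Tat, Tdo2 and Kmo fell and then rose to only 0.552, 1.1 and 1.51% of the NL mean.

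**Figure D1:**
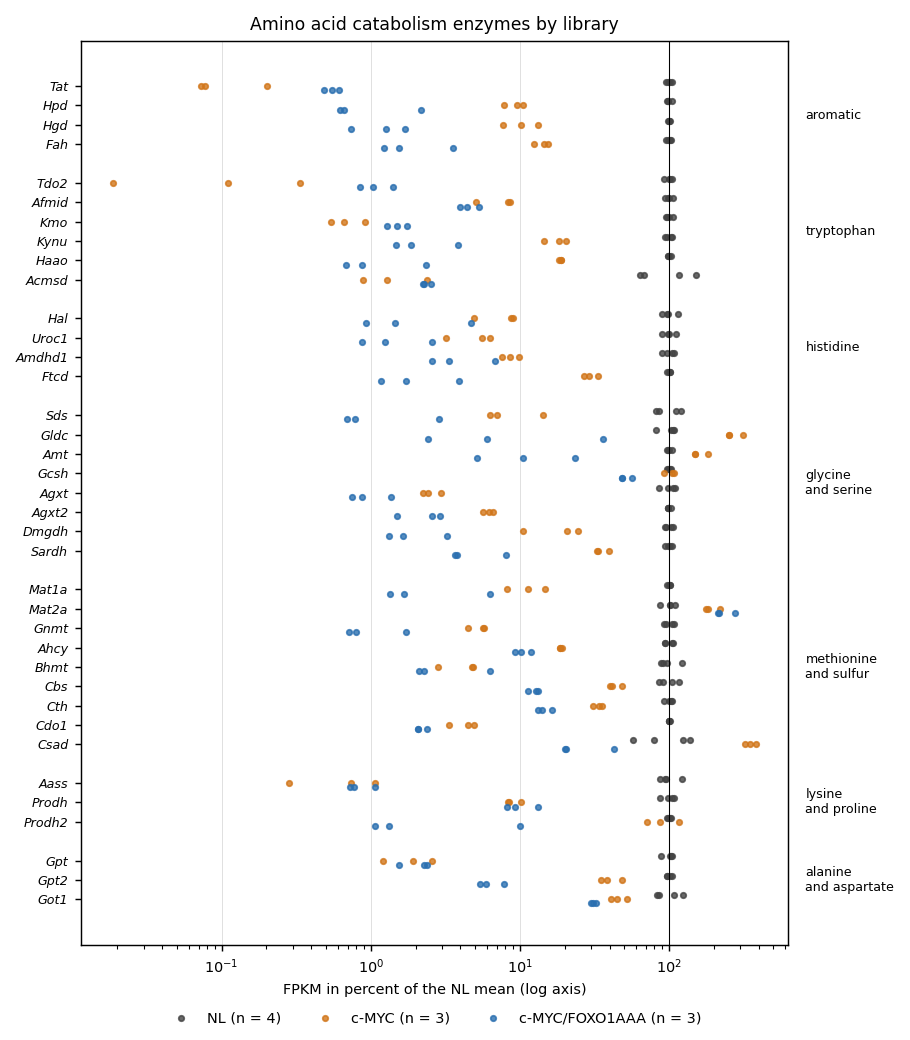
FPKM of the 37 enzymes in each library, in percent of the mean of the 4 NL libraries, on a log axis. Every point is 1 library, and rows are grouped by amino acid. Most c-MYC points lie left of NL and most c-MYC/FOXO1AAA points lie further left, whereas the order of the tumors is turned for Tat, Tdo2 and Kmo and only Mat2a lies to the right of NL in all tumors.

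**Figure D2:**
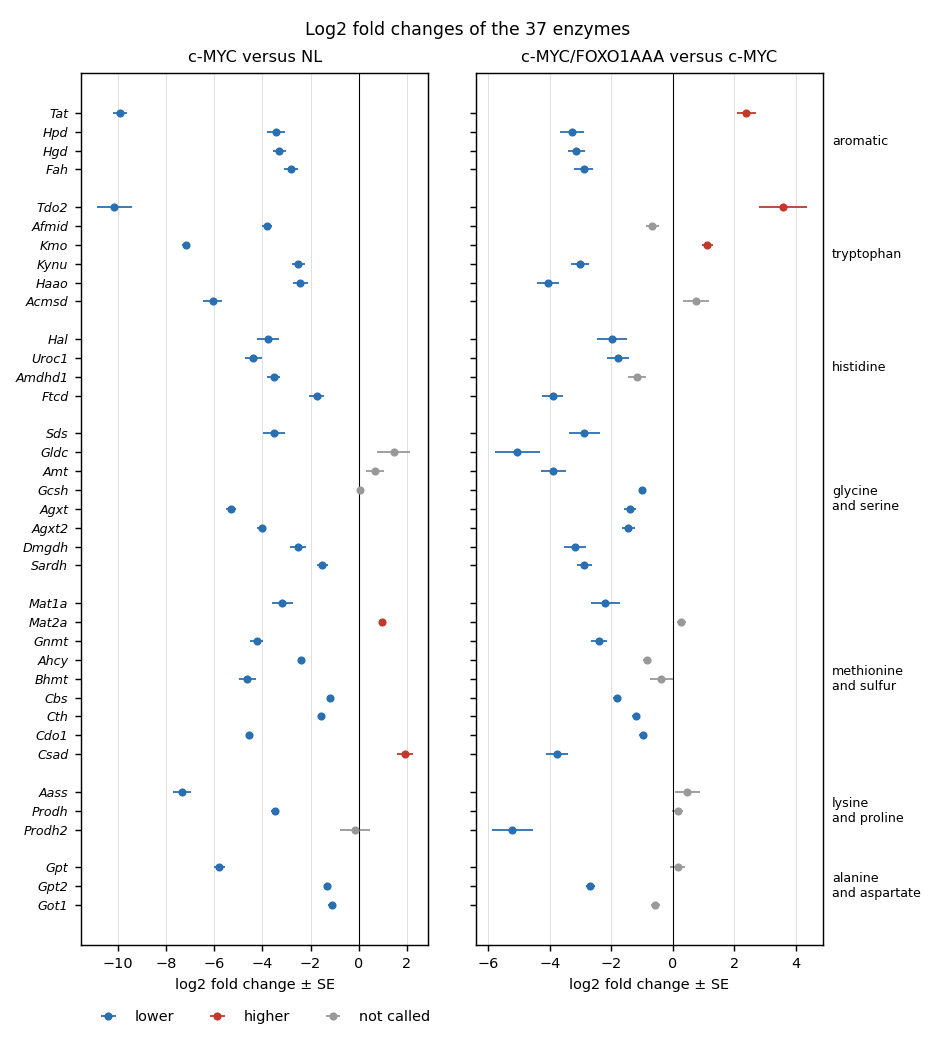
Log2 fold change (x axis) of each enzyme with its standard error (bars), for c-MYC against NL on the left and for c-MYC/FOXO1AAA against c-MYC on the right. Colors mark the calls; 31 enzymes were lower and 2 higher on the left, 24 lower and 3 higher on the right.

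Promoter windows of 250 bases before to 50 bases after the annotated start were read from RefSeq on GRCm38.p6 for 31 of the 37 enzymes (33 windows, as Agxt2 and Csad have more than 1). Gpt, Kynu, Cth, Mat1a, Cdo1 and Sds had no entry. Both strands were searched for GTAAACA, a FOXO site, for CACGTG, the E-box that MYC and MAX bind, and for CAAAGTCCA, an HNF4 site. The FOXO letters occurred in 0 of the 33 windows and in 3.65% of all 32851 windows of the table. The E-box occurred in 1 of 33, that of Cbs, and in 7.15% of all. The HNF4 letters occurred in 2 of 33, both windows of Agxt2 that overlap each other, and in 0.47% of all. A match describes letters and does not mark a bound site, and a window without one says nothing about binding elsewhere. The 250 bases before the start are printed 5′ to 3′ on the strand of the gene for the 3 enzymes that rose with FOXO1AAA, since the FOXO letters were searched in them, and for the 2 genes with a match, which is in capitals.
Tat, chr8:109990186-109990435, plus strand: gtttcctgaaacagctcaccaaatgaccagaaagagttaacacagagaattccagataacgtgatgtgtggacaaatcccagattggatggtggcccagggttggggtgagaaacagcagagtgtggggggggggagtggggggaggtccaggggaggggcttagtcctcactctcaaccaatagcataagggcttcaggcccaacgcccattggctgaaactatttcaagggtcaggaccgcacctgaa
Tdo2, chr3:81975729-81975978, minus strand: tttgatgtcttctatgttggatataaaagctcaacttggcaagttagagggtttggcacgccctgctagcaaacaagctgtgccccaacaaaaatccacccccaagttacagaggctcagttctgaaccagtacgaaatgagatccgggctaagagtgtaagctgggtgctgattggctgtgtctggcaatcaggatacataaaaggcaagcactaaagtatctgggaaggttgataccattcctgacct
Kmo, chr1:175631943-175632192, plus strand: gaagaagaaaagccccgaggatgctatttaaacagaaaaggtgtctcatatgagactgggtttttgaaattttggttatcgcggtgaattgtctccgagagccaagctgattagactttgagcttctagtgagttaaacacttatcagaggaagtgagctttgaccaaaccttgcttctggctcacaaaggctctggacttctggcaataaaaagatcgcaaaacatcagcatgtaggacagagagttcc
Cbs, chr17:31637206-31637455, minus strand, E-box in capitals: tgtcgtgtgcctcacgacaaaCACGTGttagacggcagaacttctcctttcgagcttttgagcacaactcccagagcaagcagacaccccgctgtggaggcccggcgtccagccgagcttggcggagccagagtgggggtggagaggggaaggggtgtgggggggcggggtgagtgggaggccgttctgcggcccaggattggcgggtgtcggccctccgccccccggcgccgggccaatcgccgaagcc
Agxt2, chr15:10358329-10358578, plus strand, HNF4 letters in capitals: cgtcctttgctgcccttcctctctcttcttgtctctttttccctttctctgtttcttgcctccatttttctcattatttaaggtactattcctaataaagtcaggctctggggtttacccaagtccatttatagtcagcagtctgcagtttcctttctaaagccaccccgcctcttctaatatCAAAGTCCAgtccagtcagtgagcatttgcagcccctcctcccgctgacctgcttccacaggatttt

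The first 3 hold none of the searched letters. In Cbs the E-box began 229 bases before the start, and in Agxt2 the HNF4 letters began 67 bases before it. The RefSeq start lies inside the gene as GENCODE annotates it, by 33 bases in Cbs, 47 in Agxt2, 474 in Tdo2 (chr3:81957090-81976202) and 11812 in Kmo (chr1:175620381-175662116), so these windows are not those of the outermost start.

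The 4 enzymes of tyrosine degradation all fell in c-MYC, with a median log2 fold change of −3.37. Tat, tyrosine aminotransferase, opens the chain and is a classical glucocorticoid-induced gene of liver. It lies at chr8:109990437-109999803 on the plus strand. Its FPKM was 797, 846, 820 and 782 in the NL libraries, 0.623, 0.586 and 1.63 in c-MYC, and 3.95, 4.49 and 4.99 in c-MYC/FOXO1AAA. The 3 groups were separate from each other, with c-MYC lowest. In c-MYC, Tat changed by −9.91 in log2 FPKM against NL (SE 0.30, adjusted p = 3.09e-09) and with FOXO1AAA it was 5.29-fold above c-MYC (log2 fold change 2.40, SE 0.32, adjusted p = 0.000607). It remained 182-fold below NL in c-MYC/FOXO1AAA, at 0.552% of the NL mean. The 3 c-MYC libraries held 24 to 69 Tat reads, and the c-MYC/FOXO1AAA libraries held 228 to 315.

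The enzymes that follow Tat were called in the other direction with FOXO1AAA. Hpd, Hgd and Fah, which turn hydroxyphenylpyruvate into homogentisate and on to fumarate and acetoacetate, were all called lower in both steps. Hpd was at 2169 ± 77.4 FPKM in NL (SD, n = 4), 202 ± 29.2 in c-MYC (SD, n = 3) and 24.9 ± 19.1 in c-MYC/FOXO1AAA (SD, n = 3), the last spread being set by library 3 at 46.9 against 13.4 and 14.4. Its log2 fold change was −3.44 in c-MYC (SE 0.36) and a further −3.26 with FOXO1AAA (SE 0.39, adjusted p = 0.000169). Fah, whose loss causes hereditary tyrosinemia, had FPKM of 1707 to 1845 in NL, 220 to 273 in c-MYC and 21.7 to 63.5 in c-MYC/FOXO1AAA. The smallest fall of the group in c-MYC was that of Fah (−2.83 in log2 FPKM, SE 0.29, adjusted p = 4.15e-05). Hgd was at 1471 to 1538 FPKM in NL, 116 to 199 in c-MYC and 11.0 to 25.4 in c-MYC/FOXO1AAA, which gave log2 fold changes of −3.30 and then −3.13. None of the 3 overlapped between any pair of groups. The share of all genes without overlap was not counted, here or for any other enzyme.

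All 6 tryptophan enzymes fell in c-MYC (median −4.94), and their changes with FOXO1AAA then ranged from −4.05 to 3.60. Tdo2, the heme dioxygenase that opens the kynurenine pathway in hepatocytes, had FPKM of 451, 432, 403 and 442 in NL, 0.479, 0.0809 and 1.45 in c-MYC, and 3.67, 6.11 and 4.46 in c-MYC/FOXO1AAA. The c-MYC libraries were the lowest and the most spread, resting on 28, 3 and 89 reads, and no groups overlapped. The log2 fold change was −10.14 in c-MYC against NL (SE 0.73, adjusted p = 1.15e-06) and 3.60 in c-MYC/FOXO1AAA against c-MYC (SE 0.78, adjusted p = 0.00767). Without c-MYC 2, the library with 3 reads, the second value was 2.48 (adjusted p = 0.00273), and without c-MYC 3 it was 4.56 (adjusted p = 0.00032). Tdo2 in c-MYC/FOXO1AAA stood at 1.1% of the NL mean.

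Kmo, the kynurenine hydroxylase of the outer mitochondrial membrane, followed the same order. It had FPKM of 1019, 1051, 1128 and 1004 in NL, 5.71, 6.99 and 9.63 in c-MYC, and 13.5, 18.5 and 15.7 in c-MYC/FOXO1AAA. The tumors did not overlap, and both tumor groups lay far below NL. The second step was 2.17-fold (log2 fold change 1.12, SE 0.18, adjusted p = 0.025). This call was lost without any of c-MYC 1, c-MYC 2, c-MYC/FOXO1AAA 2 or c-MYC/FOXO1AAA 3 (adjusted p between 0.0552 and 0.112) and in a fit of only these 2 groups (adjusted p = 0.0641), while the log2 fold change stayed between 0.94 and 1.32 when any 1 library was left out.

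**Figure D3:**
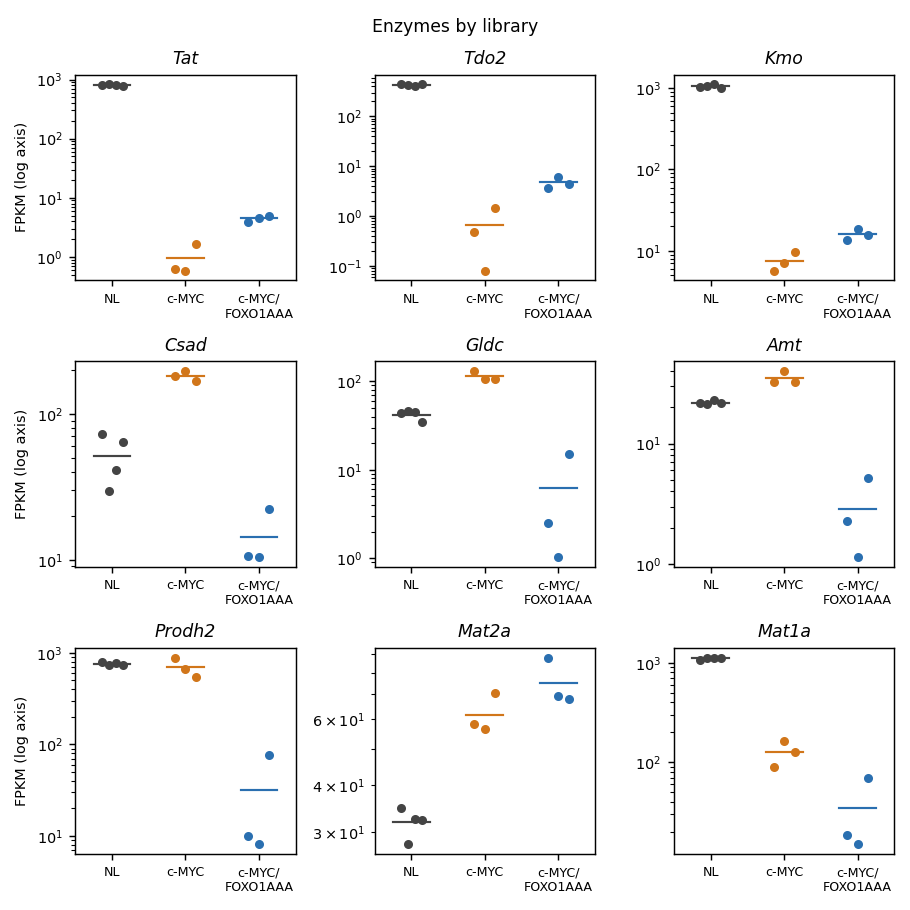
FPKM of 9 enzymes by library, each panel with a log axis of its own and a line at the mean of the group. Tat, Tdo2 and Kmo are lowest in c-MYC; Csad and Gldc are highest in c-MYC; library 3 of c-MYC/FOXO1AAA is the highest of its group for Gldc, Amt, Prodh2, Csad and Mat1a.

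Further down the kynurenine pathway, Haao and Kynu were called lower with FOXO1AAA. Haao, which forms the precursor of quinolinate, was at 726 ± 15.4 FPKM in NL (SD, n = 4), 135 ± 2.67 in c-MYC (SD, n = 3) and 9.48 ± 6.65 in c-MYC/FOXO1AAA (SD, n = 3). It had the smallest fall of the group in c-MYC (−2.42, SE 0.33, adjusted p = 0.000416) and the largest with FOXO1AAA (−4.05, SE 0.35, adjusted p = 1.52e-05). Kynu, kynureninase, changed by −2.51 and then by −3.01, with 60.1 to 66.8 FPKM in NL, 9.27 to 12.9 in c-MYC and 0.934 to 2.43 in c-MYC/FOXO1AAA. Afmid, the formamidase between Tdo2 and Kmo, fell by 3.81 in c-MYC, from 24.0 to 26.9 FPKM in NL to 1.29 to 2.20 in c-MYC and 1.01 to 1.35 in c-MYC/FOXO1AAA, and its further value of −0.66 did not pass the test (adjusted p = 0.797). Acmsd, which diverts the pathway away from NAD, was low even in NL at 5.99 to 14.3 FPKM and held 2 to 14 reads in each tumor library. Its log2 fold change in c-MYC was −6.07, and the tumor groups overlapped.

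Histidine is broken down by 4 enzymes in a row, and all 4 fell in c-MYC (median −3.65). Hal, the ammonia lyase that opens the chain, ranged from 47.9 to 61.6 FPKM in NL, from 2.61 to 4.82 in c-MYC and from 0.495 to 2.495 in c-MYC/FOXO1AAA. Uroc1, urocanase, had FPKM of 109 to 136 in NL, 3.87 to 7.71 in c-MYC and 1.07 to 3.14 in c-MYC/FOXO1AAA. Its fall in c-MYC was the largest of the group (−4.37 in log2 FPKM, SE 0.34, adjusted p = 3.07e-06). Ftcd, which hands the formimino group of histidine to folate, had the smallest, at −1.75 (SE 0.32, adjusted p = 0.00561), and the largest with FOXO1AAA, at −3.90 (SE 0.34, adjusted p = 1.58e-05). The FPKM of Ftcd was 347, 343, 347 and 334 in NL, 115, 100 and 92.0 in c-MYC, and 4.01, 5.90 and 13.5 in c-MYC/FOXO1AAA, with no overlap. Amdhd1, the imidazolonepropionase between them, was at 80.9 to 98.1 FPKM in NL, 6.87 to 8.84 in c-MYC and 2.30 to 6.09 in c-MYC/FOXO1AAA. It did not pass the test with FOXO1AAA (−1.16, adjusted p = 0.113), although its tumor groups did not overlap. The further changes of Hal (−1.97, adjusted p = 0.0324) and Uroc1 (−1.77, adjusted p = 0.0165) depended on single libraries. Leaving out c-MYC 2, c-MYC 3, c-MYC/FOXO1AAA 1 or c-MYC/FOXO1AAA 2 raised the adjusted p to between 0.0926 and 0.141 for Hal and between 0.0548 and 0.0733 for Uroc1. The call of Hal was also lost with a pseudocount of 1 (−1.22, adjusted p = 0.0839) and in a fit of only the tumor groups (adjusted p = 0.0738). The call of Ftcd in c-MYC against NL was lost when libraries were scaled to the same FPKM total (−0.82, adjusted p = 0.304).

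The genes for the P, T and H proteins of the glycine cleavage system, Gldc, Amt and Gcsh, did not pass the test in c-MYC, and all 3 fell with FOXO1AAA. The system is a mitochondrial complex that splits glycine into carbon dioxide, ammonia and a 1-carbon unit for folate. With libraries scaled to the same FPKM total, all 3 were called higher in c-MYC against NL, at log2 fold changes of 2.38 for Gldc (adjusted p = 0.0221), 1.61 for Amt (adjusted p = 0.0192) and 0.95 for Gcsh (adjusted p = 0.00212), where the median of all genes was itself 1.01. Gldc, on the minus strand at chr19:30098447-30175429, had FPKM of 43.4, 45.8, 44.5 and 34.4 in NL, 132, 106 and 106 in c-MYC, and 2.53, 1.02 and 15.3 in c-MYC/FOXO1AAA. The c-MYC libraries all lay above NL and the c-MYC/FOXO1AAA libraries all below it. The log2 fold change in c-MYC was 1.45 (SE 0.69, adjusted p = 0.224), which did not pass the test in the fit over 10 libraries, where the spread of c-MYC/FOXO1AAA enters the error. It passed in a fit of only NL and c-MYC (1.45, adjusted p = 0.000258) and without c-MYC/FOXO1AAA 3 (adjusted p = 0.0109). With FOXO1AAA, Gldc changed by −5.06 (SE 0.73, adjusted p = 0.00045), and by −6.15 without library 3.

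Amt showed the same order as Gldc. Its FPKM was 21.8, 21.1, 22.9 and 21.5 in NL, 32.6, 40.2 and 32.6 in c-MYC, and 2.28, 1.13 and 5.15 in c-MYC/FOXO1AAA. The groups did not overlap, but the log2 fold change of 0.68 in c-MYC did not pass the test (SE 0.38, adjusted p = 0.625), whereas that of −3.88 with FOXO1AAA did (SE 0.41, adjusted p = 6.47e-05). Gcsh differed little between NL (54.9 to 58.4 FPKM) and c-MYC (52.8 to 61.8 FPKM), with a log2 fold change of 0.03 (SE 0.09). It was then 2.0-fold lower in c-MYC/FOXO1AAA, at 27.4, 27.4 and 32.0 FPKM (log2 fold change −1.0, SE 0.10, adjusted p = 0.00388). In that comparison Gldc, Amt and Gcsh thus moved by −5.06, −3.88 and −1.0, of which Gcsh had the smallest change of all 8 genes for glycine and serine. Against NL, the log2 fold change of Gcsh in c-MYC/FOXO1AAA was −0.98 (adjusted p = 0.00173), and this call was lost with the same FPKM total (0.12) and with quantile normalization (−0.61). The L protein, which other mitochondrial complexes share, is encoded by Dld, a gene of the second list described below that was named after its values were seen. Dld had a mean FPKM of 65.1 in NL, 74.2 in c-MYC and 42.1 in c-MYC/FOXO1AAA, and its log2 fold changes of 0.19 in c-MYC (SE 0.10, adjusted p = 1.0) and −0.83 with FOXO1AAA (SE 0.11, adjusted p = 0.0767) did not pass the test.

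The other 5 genes for glycine and serine fell in c-MYC and again with FOXO1AAA. Agxt, the peroxisomal transaminase that removes glyoxylate, had the largest fall in c-MYC. It was at 348, 279, 320 and 361 FPKM in NL, 7.34, 7.90 and 9.68 in c-MYC, and 2.45, 2.88 and 4.48 in c-MYC/FOXO1AAA. The groups were separate, and the log2 fold change was −5.30 (SE 0.19, adjusted p = 7.2e-09) and then −1.38 (SE 0.20, adjusted p = 0.00622). Agxt2, a mitochondrial transaminase, was at 73.7 to 77.3 FPKM in NL, 4.24 to 4.91 in c-MYC and 1.13 to 2.19 in c-MYC/FOXO1AAA. It changed by −4.03 and −1.45. Sds, serine dehydratase, changed by −3.52 from 126 to 185 FPKM in NL, and by a further −2.88. Dmgdh and Sardh, the mitochondrial enzymes that demethylate dimethylglycine and sarcosine, changed by −2.51 and −1.51 in c-MYC and by −3.18 and −2.87 with FOXO1AAA. Dmgdh fell from 210 to 238 FPKM in NL to 23.5 to 55.0 in c-MYC and 2.96 to 7.28 in c-MYC/FOXO1AAA. Sardh fell from 251 to 277 FPKM to 87.0 to 105 and 9.69 to 21.3. The call of Sardh in c-MYC was lost with the same FPKM total (−0.58, adjusted p = 0.641) and with quantile normalization (−0.91, adjusted p = 0.239).

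Of the 9 genes for methionine and sulfur amino acids, 7 fell in c-MYC and 2 rose. Mat1a and Mat2a encode the isozymes that make S-adenosylmethionine, the former typical of adult hepatocytes and the latter of growing and non-hepatic cells. Mat1a had FPKM of 1073, 1128, 1124 and 1122 in NL, 90.7, 164 and 127 in c-MYC, and 18.5, 15.0 and 70.0 in c-MYC/FOXO1AAA. Library 3 of c-MYC/FOXO1AAA lay closer to the c-MYC range than to the other 2 libraries of its group. The log2 fold change was −3.17 in c-MYC (SE 0.44, adjusted p = 0.000307) and −2.20 with FOXO1AAA (SE 0.47, adjusted p = 0.0136). The second call was lost without c-MYC 2, c-MYC/FOXO1AAA 1 or c-MYC/FOXO1AAA 2 (adjusted p between 0.0523 and 0.0707).

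Mat2a, on the minus strand at chr6:72432799-72439558, moved against the set. Its FPKM was 34.7, 27.8, 32.5 and 32.3 in NL, 58.2, 56.5 and 70.5 in c-MYC, and 87.8, 69.2 and 68.0 in c-MYC/FOXO1AAA. All tumor libraries lay above NL, and the tumor groups overlapped. It rose 1.94-fold in c-MYC (log2 fold change 0.95, SE 0.13, adjusted p = 0.017) and stood 2.35-fold above NL in c-MYC/FOXO1AAA (1.23, adjusted p = 0.000499). Without c-MYC 3, the first value was 0.85 and did not pass the test (adjusted p = 0.0799).

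Set against each other in each library, log2 FPKM of Mat2a minus that of Mat1a was −5.13 ± 0.16 in NL (SD, n = 4), −1.01 ± 0.47 in c-MYC (SD, n = 3) and 1.47 ± 1.31 in c-MYC/FOXO1AAA (SD, n = 3). The 3 values in the last group were 2.24, 2.21 and −0.04, so that library 3 stood between the c-MYC libraries and the other two. The difference of the balance was 4.12 between c-MYC and NL, 2.48 between c-MYC/FOXO1AAA and c-MYC, and 6.60 between c-MYC/FOXO1AAA and NL. A 2-sided exact permutation test gave p = 0.0571 against NL, the smallest p that 4 against 3 libraries allow, and p = 0.1 between the tumors, the smallest for 3 against 3. Over the 6 balances tested, the adjusted values were 0.0857 and 0.1. The design therefore could not pass 0.05 here. Mat2a was scaled by a length of 2804 bases where its longest coding transcript has 3387. With the latter, every balance would be shifted by −0.27, to 1.97, 1.93 and −0.32 in c-MYC/FOXO1AAA, and the differences between groups would stay as they are.

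**Figure D4:**
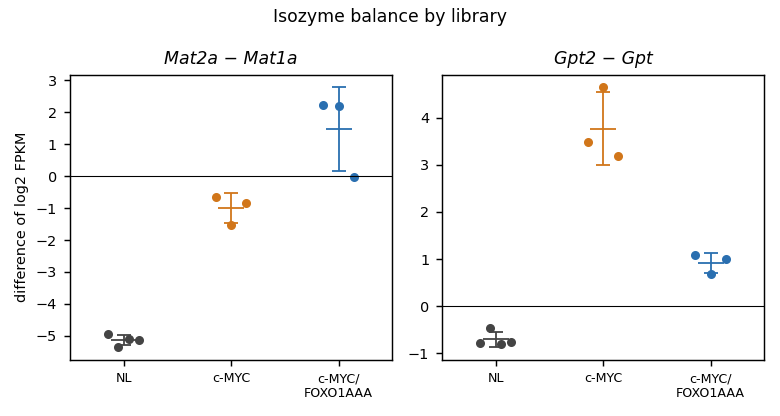
Difference of log2 FPKM between isozymes in each library (points), with the mean and SD of each group (bars). Mat2a minus Mat1a climbs from −5.13 in NL to 1.47 in c-MYC/FOXO1AAA, with library 3 at −0.04; Gpt2 minus Gpt is highest in c-MYC at 3.77.

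Downstream of S-adenosylmethionine, Gnmt, the glycine methyltransferase that buffers it in liver, was at 2041 ± 158 FPKM in NL (SD, n = 4), 108 ± 14.3 in c-MYC (SD, n = 3) and 22.2 ± 11.5 in c-MYC/FOXO1AAA (SD, n = 3). It was called lower in both steps, with log2 fold changes of −4.24 and −2.40. Bhmt, which remethylates homocysteine with betaine, had the largest fall of this group in c-MYC, at −4.62 (SE 0.35, adjusted p = 2.76e-06). Its FPKM was 668 to 926 in NL, 21.5 to 36.6 in c-MYC and 15.9 to 48.1 in c-MYC/FOXO1AAA, and the tumors overlapped. Ahcy, which clears S-adenosylhomocysteine, fell by 2.41 to 76.1 to 78.5 FPKM, and its further log2 fold change of −0.85 missed the threshold (SE 0.11, adjusted p = 0.054) although the groups did not overlap.

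The transsulfuration genes, which carry homocysteine to cysteine, fell in both steps. Cbs, which begins it, had FPKM of 189, 148, 139 and 168 in NL, 64.7, 78.2 and 67.0 in c-MYC, and 18.3, 20.8 and 21.3 in c-MYC/FOXO1AAA. The groups were separate, with log2 fold changes of −1.20 (SE 0.12, adjusted p = 0.000789) and then −1.80 (SE 0.13, adjusted p = 1.87e-05). Cth, cystathionine gamma-lyase, was at 79.1 to 89.8 FPKM in NL, 26.4 to 30.5 in c-MYC and 11.4 to 14.1 in c-MYC/FOXO1AAA, and changed by −1.58 and −1.20. Scaled to the same FPKM total, neither was called in c-MYC against NL (−0.27 and −0.65). Cdo1, the dioxygenase that oxidizes cysteine, fell by 4.57 from 1025 ± 8.36 FPKM in NL (SD, n = 4) to 43.7 ± 8.21 in c-MYC (SD, n = 3). Its further log2 fold change of −0.96 (SE 0.13, adjusted p = 0.0333) was not called without c-MYC 2, c-MYC 3, c-MYC/FOXO1AAA 1 or c-MYC/FOXO1AAA 3 (adjusted p between 0.0855 and 0.122). Nor was it called in a fit of only the tumor groups (adjusted p = 0.0764).

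Csad, the decarboxylase after Cdo1 on the way to taurine, had the largest rise of the 37 in c-MYC. It had FPKM of 72.3, 29.7, 41.3 and 64.0 in NL, 182, 198 and 169 in c-MYC, and 10.7, 10.4 and 22.1 in c-MYC/FOXO1AAA. All c-MYC libraries lay above NL and all c-MYC/FOXO1AAA libraries below it. Csad rose 3.74-fold in c-MYC (log2 fold change 1.90, SE 0.33, adjusted p = 0.00369) and with FOXO1AAA it was 13.6-fold below c-MYC (log2 fold change −3.76, SE 0.36, adjusted p = 3.07e-05). Consecutive enzymes of the taurine route, Cdo1 and Csad, thus were called in opposite directions in c-MYC against NL and in the same direction with FOXO1AAA.

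Of the 3 genes for lysine and proline, Aass and Prodh fell in c-MYC and for Prodh2 the fall was called with FOXO1AAA. Aass, the bifunctional enzyme that opens lysine breakdown, had FPKM of 83.3, 91.5, 117 and 89.2 in NL, 0.268, 0.706 and 1.02 in c-MYC, and 0.690, 0.738 and 1.02 in c-MYC/FOXO1AAA. Both tumor groups were far below NL and overlapped each other. The log2 fold change in c-MYC was −7.35 (SE 0.38, adjusted p = 8.72e-08), and the further value of 0.48 did not pass the test (SE 0.40, adjusted p = 1.0). Prodh, proline dehydrogenase of mitochondria and a known target of p53, fell by 3.48 from 221 ± 20.6 FPKM in NL (SD, n = 4) to 19.9 ± 2.23 in c-MYC (SD, n = 3), and was at 22.6 ± 5.77 in c-MYC/FOXO1AAA (SD, n = 3).

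Prodh2, which acts on hydroxyproline, showed another pattern. Its FPKM was 788, 745, 769 and 741 in NL, 889, 659 and 547 in c-MYC, and 10.02, 8.07 and 76.0 in c-MYC/FOXO1AAA. The c-MYC libraries spanned the NL range, and the c-MYC/FOXO1AAA libraries were all far lower, with library 3 several times above the other two. The log2 fold change was −0.15 in c-MYC (SE 0.62, adjusted p = 1.0) and −5.22 with FOXO1AAA (SE 0.67, adjusted p = 0.000181), the latter being the largest further fall of the 37. It was −6.25 without c-MYC/FOXO1AAA 3.

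All 3 genes for alanine and aspartate fell in c-MYC (median −1.31). Gpt, the cytosolic alanine aminotransferase measured in blood as ALT, had FPKM of 355, 308, 360 and 364 in NL, 6.71, 4.17 and 8.98 in c-MYC, and 5.40, 7.85 and 8.33 in c-MYC/FOXO1AAA. It fell by 5.78 in c-MYC (SE 0.23, adjusted p = 1.91e-08), and the tumors overlapped. Gpt2, its mitochondrial counterpart, was at 213 ± 8.27 FPKM in NL (SD, n = 4), 86.8 ± 15.0 in c-MYC (SD, n = 3) and 13.6 ± 2.72 in c-MYC/FOXO1AAA (SD, n = 3), which gave −1.31 and then −2.68 (SE 0.15, adjusted p = 1.09e-06). Log2 FPKM of Gpt2 minus that of Gpt was therefore −0.70 ± 0.16 in NL (SD, n = 4), 3.77 ± 0.77 in c-MYC (SD, n = 3) and 0.92 ± 0.22 in c-MYC/FOXO1AAA (SD, n = 3), with the same smallest exact permutation p of 0.0571 against NL and 0.1 between the tumors. Got1, the cytosolic aspartate aminotransferase of the malate-aspartate shuttle, had the smallest fall of all called enzymes in c-MYC, at −1.11 (SE 0.15, adjusted p = 0.0062), from 87.9 to 132 FPKM in NL to 43.7 to 55.4. Its call, and that of Gpt2, was lost in c-MYC with the same FPKM total (−0.18 and −0.38) and with quantile normalization (−0.78 and −0.76).

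Levels per length can be ordered only for the 27 enzymes whose deposited length was that of their longest coding transcript. Among these, Hpd (2122 to 2284 FPKM) and Gnmt (1880 to 2212 FPKM) led in NL and overlapped, followed by Mat1a and Cdo1 with ranges of 1073 to 1128 and 1019 to 1037. Amt (21.8 ± 0.761, SD, n = 4) and Acmsd (9.43 ± 3.94, SD, n = 4) were lowest. For Kmo, Prodh2, Hgd, Cbs and Fah the length was 2.32 to 9.82 times shorter than the longest coding transcript, which raises their FPKM in every library by the same factor and leaves fold changes untouched.

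A second list of 36 genes that act beside these enzymes was counted in the same fit, 35 of which were tested (Dao was too low). In c-MYC against NL, 23.6% of all genes tested were called lower and 24.5% higher (median 0.08). Of the second list, 20 were lower, 3 higher and 12 not called (median −1.38). The largest falls were those of Ido2, an indoleamine dioxygenase, and Hao1, the glycolate oxidase of peroxisomes. Ido2 held 1447 to 1741 reads in NL and 0, 2 and 3 in c-MYC, too few for a fold. Hao1 was at 199 to 225 FPKM in NL and 0.240 to 0.324 in c-MYC (log2 fold change −9.49, adjusted p = 2.53e-08). In c-MYC it rested on only 10, 7 and 10 reads, which limits the size of this fold. Among the rises was that of Mtr, the methionine synthase that remethylates homocysteine (log2 fold change 1.62, adjusted p = 0.000112).

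In c-MYC/FOXO1AAA against c-MYC, 12.7% of all genes tested were called lower and 15.9% higher (median 0.03). Of the second list, 23 were lower, 4 higher and 8 not called (median −1.44). Hao1 was among the higher, at 1.73, 3.02 and 7.94 FPKM (log2 fold change 3.56, adjusted p = 0.000167), again against few reads in c-MYC. So was Ido2, with 26, 60 and 20 reads. Pipox, which oxidizes pipecolate and sarcosine, fell by 3.83 (adjusted p = 8.5e-05), and Qprt, which follows Haao on the way to NAD, fell by 3.66 (adjusted p = 0.000257). Qprt had been at 98.4 to 114 FPKM in c-MYC and 166 to 178 in NL, a log2 fold change of −0.69 that did not pass the test. Against NL, c-MYC/FOXO1AAA had 29 of the second list lower, 3 higher and 3 not called. Over all genes tested, 26.6% were called lower and 31.2% higher there.

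The hepatocyte markers were all lower in the tumors than in NL. Hnf4a, a defining factor of hepatocytes, was at 45.7 to 61.2% of the NL mean in c-MYC and 2.55 to 6.08% in c-MYC/FOXO1AAA, and Ttr was at 10.7 to 13.6% and 0.778 to 1.94%. Alb was at 1.19 to 3.33% and 1.06 to 2.11%, so that its tumor groups overlapped. Cyp2e1, a marker of hepatocytes near the central vein, was at 0.0363 to 0.355% in c-MYC and 0.605 to 1.11% in c-MYC/FOXO1AAA, the same order as Tat, Tdo2 and Kmo. The remaining markers of the list, Apoa1, Apob, Serpina1a and Fgb, were lower in every c-MYC/FOXO1AAA library than in every c-MYC library. The part of these markers in the changes of the enzymes was not tested.

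**Figure D5:**
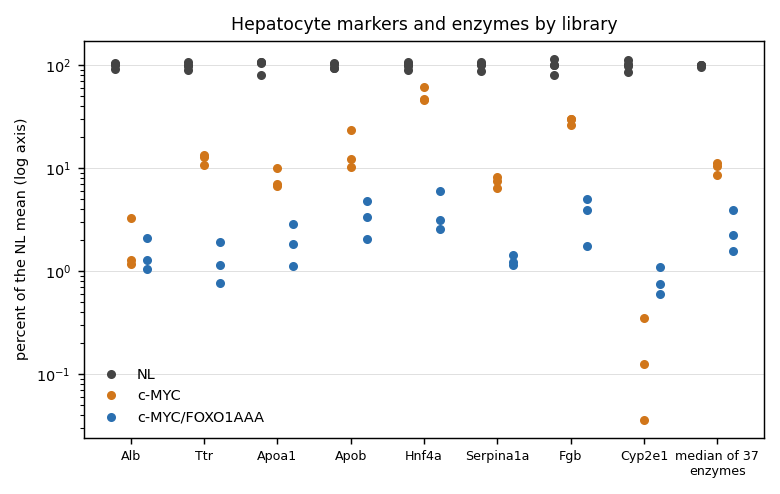
Level of 8 hepatocyte markers, and the median over the 37 enzymes, in percent of the NL mean on a log axis, with 1 point per library. All markers lie below NL in the tumors; Cyp2e1 is lowest in c-MYC, Alb overlaps, and the other 6 and the enzyme median are lower in c-MYC/FOXO1AAA.

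Other cell types were followed by summed markers, of which only part moved in most lists. The 4 skeletal muscle markers summed to 0.532 to 0.672 FPKM in NL, 1.13 to 5.87 in c-MYC and 241 to 326 in c-MYC/FOXO1AAA. Acta1 (89.4 to 121) and Tnnt3 (137 to 196) made up nearly all of the last sum, while Myh4 stayed at 0.137 or less in every library and Tnnt3 had no reads in NL. The 4 markers of stellate cells and fibroblasts summed to 11.5 to 14.1 in NL, 3.74 to 12.8 in c-MYC and 76.8 to 107 in c-MYC/FOXO1AAA. Most of the last sum was Des (57.4 to 69.3), which muscle also expresses. Lrat, a marker of stellate cells, was at 0.166 to 0.454 in c-MYC/FOXO1AAA against 3.41 to 4.40 in NL. Col1a1 went the other way, at 1.64 to 3.07 in NL, 3.16 to 11.4 in c-MYC and 11.0 to 40.7 in c-MYC/FOXO1AAA. Reln was at 4.49 to 5.4 in NL, 0.0328 to 0.187 in c-MYC and 4.15 to 8.25 in c-MYC/FOXO1AAA. The 4 cholangiocyte markers summed to 2.36 to 4.63 in NL, 15.4 to 30.8 in c-MYC and 4.72 to 11.9 in c-MYC/FOXO1AAA. Epcam was highest in c-MYC (12.6 to 16.5). Krt7 in c-MYC (2.12 to 14.2) lay above NL but overlapped with c-MYC/FOXO1AAA (0.515 to 2.59). Sox9 was lowest in c-MYC (0.0415 to 0.0682, against 0.499 to 0.978 in NL). Krt19 was at 0.546 to 1.89 in NL, 0.0751 to 0.628 in c-MYC and 1.88 to 5.64 in c-MYC/FOXO1AAA.

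The 3 proliferation markers were all higher in the tumors, with sums of 0.99 to 9.22 in NL, 122 to 142 in c-MYC and 85.6 to 97.9 in c-MYC/FOXO1AAA. The 5 Kupffer cell markers summed to 226 to 407, 127 to 177 and 60.2 to 106. Against the order of the sum, Clec4f and Vsig4 were lowest in c-MYC. Clec4f was at 149 to 262 in NL, 1.42 to 7.36 in c-MYC and 12.8 to 25.4 in c-MYC/FOXO1AAA, and Vsig4 at 9.31 to 18.9, 0.0827 to 1.11 and 1.70 to 2.42. Cd5l was highest in c-MYC (52.6 to 82.0, against 22.3 to 43.9 in NL and 5.96 to 13.4 in c-MYC/FOXO1AAA). Adgre1 and C1qa overlapped between the tumor groups. The 4 markers of sinusoidal endothelium summed to 13.3 to 15.0, 6.51 to 10.9 and 4.03 to 7.43, and the 3 red blood cell genes to 1100 to 2170, 130 to 233 and 214 to 530. Of the 3 lymphocyte genes 2 were analysed here. Cd79a was at 0.0813 to 0.889 in NL, 0.193 to 0.231 in c-MYC and 6.98 to 11.9 in c-MYC/FOXO1AAA, while Ptprc was at 1.03 to 1.54, 1.77 to 1.99 and 0.604 to 1.32. The Y chromosome genes as a set were read in all 10 libraries, at sums of 35.8 to 76.6. Of these, Kdm5d was at 0.0988 in c-MYC/FOXO1AAA 2 and at 1.81 to 2.78 in every other library. The part of these cells in the changes of the enzymes was not tested.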

How the data were processed

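RNA-seq libraries of 10 mouse samples were grouped by their titles (NL, n = 4; c-MYC, n = 3; c-MYC/FOXO1AAA, n = 3). The deposited table holds log2 FPKM for 17069 entries, of which 372 without a symbol were left out. The authors counted reads per gene, analyzed them in R with edgeR and took FPKM to log2. The values show that library sizes were multiplied by a factor per library. They also show that before the logarithm a prior of 2 reads, in proportion to this scaled size, was added, which understates changes of low genes. The submitters' processing notes name GRCm38 and FastQC 0.11.7; aligner and counter are not given in the sources used here. Reads per library and the length used for each gene were recovered by trying lengths until every library came out in whole reads, within 0.01 of a read. This was done for all 16697 genes, for 911 of which several lengths fitted.

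As the unit is not a count, no count model was run here. The 14017 genes that reached an FPKM of 1 in 3 or more libraries were fitted in limma 3.58.1 (R 4.3.3, statmod 1.5.0), with a mean per group over all 10 libraries, trend and robust estimation. Changes beyond 1.5-fold were tested 2-sided with its treat function and Benjamini-Hochberg adjustment over all genes tested, and calls were made under 0.05. The fit was tested on simulated data. Isozyme balances were compared by exact permutation tests. By the methods of the study, the RNA came from 3 injected mice in each tumor group and from 4 normal livers. The labels tie no library to an animal, so p-values measure the spread between these samples. Replicates of a group differed by more than counting noise (chi-square per degree of freedom 9.4 to 33.9), so none was counted as a duplicate.

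All 37 enzymes are described. Full statistics went to those at the ends of each amino acid group and to those called in opposite directions, and of the second list the 2 genes with the largest called change in each direction are named, except 1 that is not reported here. The enzymes, the lists, the motifs and the tests were chosen with earlier results of these data known. Positions are those of GENCODE release M21 on GRCm38, promoter windows those of RefSeq on GRCm38.p6. Alternatives were a pseudocount of 0.1 or 1, leaving out the filter or asking for a mean FPKM of 5, the same FPKM total, quantile normalization, no fold-change threshold, a fit of only the 2 groups, a replicate block, and each library left out.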

Additional observations from a re-analysis of the deposited data

Results flagged for a closer look

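In 5 of the 37 enzymes, 1 of the 4 NL libraries stood further from the others than Dixon's test allows at 95%. These were Hpd in NL 1 (2284 FPKM), Mat1a in NL 1 (1073 FPKM), Cdo1 in NL 1 (1037 FPKM), Agxt2 in NL 2 (77.3 FPKM) and Gpt in NL 2 (308.2 FPKM). Chance flags about 1 in 20 groups. The gap is small beside the distance to the tumors in each case, and no call changed for these enzymes when NL 1 or NL 2 was left out. Groups of 3 were not tested in this way.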

How the results depend on the processing

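Of the 111 changes (37 enzymes in 3 comparisons), 84 kept direction and call under every alternative, as did 82 of the 97 called ones. Leaving out 1 library at a time, 97 of the 111 kept both. The number of enzymes called higher in c-MYC against NL was 2 and became 5 with the same FPKM total (with Gldc, Amt and Gcsh) and 3 in a fit of only the 2 groups (with Gldc), and ranged from 1 (without c-MYC 3) to 3 (without c-MYC/FOXO1AAA 3) when 1 library was left out. The replicate numbers do not pair the samples (correlation of same-numbered deviations from −0.04 to 0.027), and the fit with a replicate block changed no call of an enzyme, leaving 31 lower and 2 higher in c-MYC against NL. Scaling to the same FPKM total moved the median of all genes to 1.01 in c-MYC against NL, 0.20 in c-MYC/FOXO1AAA against c-MYC and 1.31 in c-MYC/FOXO1AAA against NL, and the share of higher among all calls from 51.0% to 78.8%, from 55.5% to 63.6% and from 54.0% to 79.5%. The share of higher calls in all genes called was 55.6%, 49.9% and 54.5% with quantile normalization. The higher and lower calls over all genes became 7061 and 1895 in c-MYC against NL, and 8129 and 2099 in c-MYC/FOXO1AAA against NL, with the same FPKM total. With it, 25 enzymes were still called lower in c-MYC, and 33 in c-MYC/FOXO1AAA, against NL.

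With the same FPKM total, directions turned for Prodh2 in c-MYC against NL (0.78) and for the called change of Gcsh in c-MYC/FOXO1AAA against NL (from −0.98 to 0.12). With quantile normalization they turned for Prodh2 in c-MYC against NL (0.67) and, in c-MYC/FOXO1AAA against c-MYC, Acmsd (−0.17) and Aass (−0.22). Leaving out 1 library, c-MYC against NL ranged from −0.02 to 0.09 for Gcsh and from −0.34 to 0.01 for Prodh2, and c-MYC/FOXO1AAA against c-MYC ranged from −0.07 to 0.89 for Aass, from −0.04 to 0.30 for Prodh and from −0.13 to 0.42 for Gpt. Without c-MYC/FOXO1AAA 3, the called changes of Gldc, Prodh2, Mat1a, Hal, Sds and Hpd in that group moved by 0.59 to 1.09 on the log2 scale, away from zero, and without c-MYC/FOXO1AAA 2 those of Gldc and Prodh2 moved by 0.59 to 0.87 toward it. A pseudocount of 1 lowered the second change of Tdo2 from 3.60 to 1.84, which was still called (adjusted p = 0.00105). Calls lost by scaling beside those in the report were Cbs (−0.75) and Ftcd (−1.09) in c-MYC against NL and Cdo1 (−0.84) between the tumors with quantile normalization, Csad (−0.76) and Got1 (−0.57) in c-MYC/FOXO1AAA against NL with the same FPKM total, and Hal (−1.80) and Cdo1 (−0.79) between the tumors with the same FPKM total. Afmid gained a call between the tumors with quantile normalization (−1.20). Apart from what the construction of an alternative shows, the cause was not tested. Depth limits Acmsd, Aass, Tat, Tdo2 and Kmo, which rest on 2 to 89 reads in each c-MYC library.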
